A study of Mus musculus with 6 samples.

Results

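Follistatin, its relatives, the inhibin subunits that form activins and inhibins, and the activin receptors were followed across arrays of the SVI line, mouse podocytes immortalized conditionally. The 10 genes (Fst, Fstl1, Fstl3, Inha, Inhba, Inhbb, Acvr1, Acvr1b, Acvr2a and Acvr2b) were taken as a family by gene symbol, and all 10 were among the 18193 genes measured. They were read by 20 of the 45037 probe sets, and the probe set with the highest mean over all 6 arrays stood for its gene. The family was selected on known values of the same comparison, the high Fst and Inhba levels on stretched arrays, and filled in by function. The values of these genes are therefore given as a description, and their number past the threshold supports nothing about the family.

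Podocytes are the cells that cover the capillaries of the kidney glomerulus. The stretched group (3 arrays) came from cells stretched cyclically along both axes for 3 days (0.5 Hz, linear strain of at most 5%), and the unstretched group (3 arrays) came from cells without it. Both groups were SVI cells differentiated for 1 to 2 weeks at 38 °C in medium with 10% serum, a line grown outside the glomerulus and without its other cell types. The series mentions independent batches without assigning arrays to them, and the p-values rest on array-to-array spread, part of which can be technical.

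Activins are dimers of inhibin beta subunits (Inhba encodes beta A and Inhbb encodes beta B), whereas an inhibin joins the alpha subunit, encoded by Inha, to a beta subunit and opposes activin. Activin binds a type II receptor (Acvr2a or Acvr2b), which recruits a type I receptor such as Acvr1b, and the complex phosphorylates Smad2 and Smad3. Follistatin, encoded by Fst, is a secreted protein that wraps around activin and keeps it from its receptors. In the kidney, activin A is known from injured tubules and from fibrosis.

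The promoters of 3 genes with higher levels in stretched cells are shown so that the base composition before the start of each can be seen. The RefSeq promoter table (GRCm38.p6) held 9 of the 10 genes, all but Fst. The 250 bases before the start site in that table are printed 5′ to 3′ on the strand of the gene, with CpG dinucleotides in capitals. They lie at chr13:16011601-16011850 on the plus strand for Inhba, inside the longer annotated span of that gene, at chr1:119422249-119422498 on the minus strand for Inhbb, and at chr16:37776805-37777054 on the plus strand for Fstl1.
Inhba: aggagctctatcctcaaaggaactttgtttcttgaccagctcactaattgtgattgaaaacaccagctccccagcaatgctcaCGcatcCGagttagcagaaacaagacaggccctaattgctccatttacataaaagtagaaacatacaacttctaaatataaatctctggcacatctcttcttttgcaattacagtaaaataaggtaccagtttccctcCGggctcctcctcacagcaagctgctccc
Inhbb: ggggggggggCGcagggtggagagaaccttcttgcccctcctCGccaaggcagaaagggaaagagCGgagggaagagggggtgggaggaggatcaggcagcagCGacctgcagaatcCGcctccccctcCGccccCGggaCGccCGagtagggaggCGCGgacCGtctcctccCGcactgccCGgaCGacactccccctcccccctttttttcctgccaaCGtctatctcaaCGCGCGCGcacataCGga
Fstl1: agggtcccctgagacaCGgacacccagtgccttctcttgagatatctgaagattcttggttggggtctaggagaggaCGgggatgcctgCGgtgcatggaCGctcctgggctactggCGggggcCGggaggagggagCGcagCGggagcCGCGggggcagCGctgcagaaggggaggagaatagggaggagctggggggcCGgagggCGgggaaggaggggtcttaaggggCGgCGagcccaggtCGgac
The Inhba window had 3 CpGs and 43.2% G and C, against 21 CpGs and 68% in the Inhbb window and 16 CpGs and 68% in the Fstl1 window. Over the 32851 promoter windows in the table, the medians were 6 CpGs and 52.4%. The windows were searched on both strands for the AP-1 site TGANTCA, the Smad box CAGAC, the TEAD site GGAATG, the cAMP response element TGACGTCA and the SRF CArG box. None of these letters occurred in the windows of Inhba, Inhbb, Fstl1, Acvr1 or Acvr1b. The Smad box occurred in 4 of the 9 windows, those of Fstl3, Inha, Acvr2a and Acvr2b, and in 42.2% of all windows. Like that of Inhba, the windows of Inha and Acvr2b lie inside the longer annotated span of their gene. The other motifs were in 0 of the 9 and in 6.75% (AP-1), 12.6% (TEAD), 1.55% (cAMP response element) and 1.47% (CArG box) of all windows. No match overlapped one of another motif, since in these windows only the Smad box matched, and a match or its lack describes only these letters in these windows.

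The antagonist gene Fst stood highest of the family in its change. Its log2 values were 10.41, 10.37 and 10.51 on stretched arrays, against 8.22, 8.14 and 8.24 on unstretched arrays. The groups did not overlap, and replicates of a group differed by far less than the groups did. The mean was 10.43 ± 0.07 in stretched and 8.20 ± 0.05 in unstretched cells (SD, n = 3 each), a level 4.69-fold higher (log2 change 2.23, SE 0.08, 95% interval 2.05 to 2.41). It was the 5th highest change among the 18193 genes. The other Fst probe set, 1421365_at, read 9.72, 9.58 and 9.65 on stretched against 7.66, 7.54 and 7.39 on unstretched arrays, a log2 change of 2.12 (SE 0.10).

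Fstl1, a secreted glycoprotein with a follistatin-like domain, was higher too. It read 12.03, 12.04 and 11.92 on stretched arrays and 11.35, 11.30 and 11.36 on unstretched arrays, without overlap. The log2 change was 0.66 (SE 0.08, limma adjusted p = 4.81e-04 over all genes), a level 1.58-fold higher. Its other probe set, 1416221_at, had a log2 change of 0.83 (SE 0.09). Fstl3, which like follistatin binds activin, read 4.68, 4.91 and 4.75 on stretched and 4.60, 4.97 and 4.91 on unstretched arrays. The groups overlapped, and the log2 change of -0.04 had a 95% interval from -0.29 to 0.21. Its single probe set was dim, its mean lying under that of the median gene (5.74), where values can be background.

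**Figure D1:**
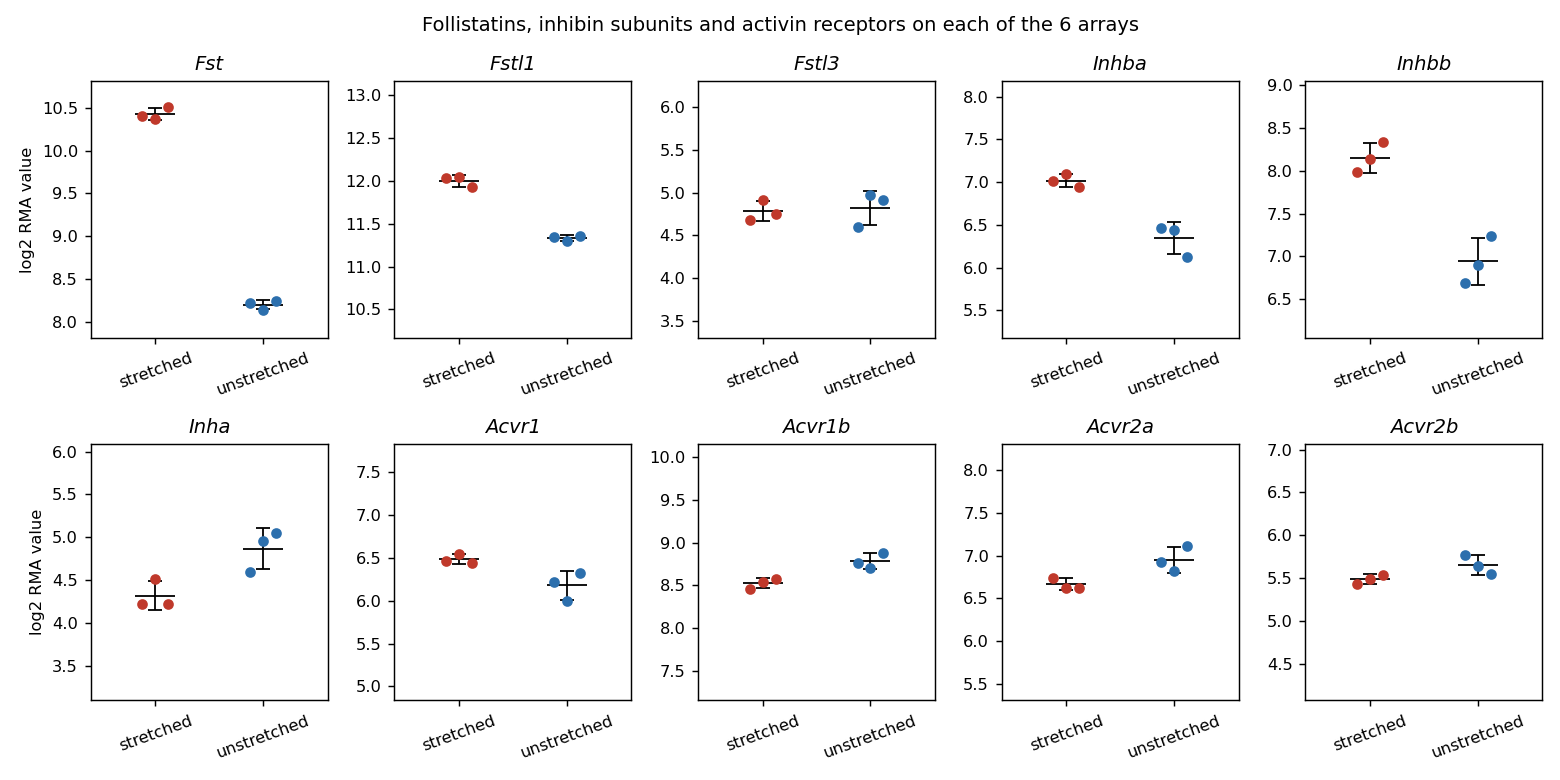
Log2 RMA value (y axis, a span of 3 units in every panel) of the probe set standing for each of the 10 genes, with stretched cells left of unstretched cells. Points are single arrays, and bars are the mean ± SD of 3 arrays. Fst lies between 10.37 and 10.51 in stretched cells, against 8.14 to 8.24 in unstretched cells, and only Fstl3 among the 10 overlaps between groups.

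Both activin beta subunit genes were higher in stretched cells. Inhba read 7.02, 7.09 and 6.95 on stretched arrays, against 6.47, 6.44 and 6.13 on unstretched arrays, and the groups did not overlap. Its mean was 7.02 ± 0.07 in stretched and 6.35 ± 0.19 in unstretched cells (SD, n = 3 each), a log2 change of 0.67 (SE 0.11, 95% interval 0.44 to 0.91). A second, dimmer Inhba probe set, 1458291_at, did not show this. It read 4.88, 4.67 and 4.58 on stretched and 4.45, 4.76 and 4.74 on unstretched arrays, with a log2 change of 0.06 (95% interval -0.20 to 0.32). With both averaged, the Inhba log2 change was 0.37.

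Inhbb values were 7.98, 8.14 and 8.33 on stretched arrays, against 6.69, 6.90 and 7.24 on unstretched arrays. The lowest stretched value was above the highest unstretched value, and the mean level was 2.31-fold higher (log2 change 1.21, SE 0.14, 95% interval 0.90 to 1.51, limma adjusted p = 3.21e-04). The dimmer probe set 1426859_at read 6.42, 6.35 and 6.44 on stretched and 5.69, 5.78 and 5.91 on unstretched arrays. Its log2 change was 0.61 (SE 0.09), so the probe sets of Inhbb had the same direction and different sizes.

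Inha, the alpha subunit gene that makes inhibin in place of activin, fell. It read 4.22, 4.52 and 4.22 on stretched arrays, against 4.59, 4.96 and 5.05 on unstretched arrays, without overlap. Its log2 change of -0.55 (SE 0.13, limma adjusted p = 0.0176) had a 95% interval from -0.84 to -0.26. This probe set, the only one of Inha, was also below the median gene in mean. It no longer passed once stretched replicate 1 or 3 (adjusted p = 0.0743 and 0.0738) or unstretched replicate 2 or 3 (0.0641 and 0.0502) was left out, within a range of 0.0058 to 0.0743 over all alternatives that tested it.

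Differences taken within an array cancel a shift common to all values of the array, but not a difference in spread between arrays. Probe sets bind with different strength, so that only the change of such a difference between groups can be read, and not its size. Fst minus Inhba was 3.39, 3.28 and 3.56 log2 units on stretched arrays, against 1.75, 1.70 and 2.11 on unstretched arrays, a shift of 1.56. Fst minus Inhbb was 2.42, 2.23 and 2.17 on stretched and 1.52, 1.24 and 1.00 on unstretched arrays, a shift of 1.02. With these probe sets, both differences were larger on every stretched array than on any unstretched array. Both shifts depend on the probe set, since the other probe set of Inhba changed by 0.06 and that of Inhbb by 0.61. These are descriptions of transcripts chosen for the family, and proteins were not measured.

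Acvr1b, Acvr2a and Acvr2b, the genes of activin receptors, had log2 changes from -0.29 to -0.16, and none passed the threshold. Acvr1b, a type I activin receptor, read 8.46, 8.54 and 8.57 on stretched arrays and 8.76, 8.71 and 8.88 on unstretched arrays, without overlap (log2 change -0.26, SE 0.09, limma adjusted p = 0.0689). Acvr2a, a type II receptor, read 6.74, 6.62 and 6.63 on stretched and 6.92, 6.82 and 7.12 on unstretched arrays, also without overlap (log2 change -0.29, SE 0.10, adjusted p = 0.0739). Acvr2b, the other type II receptor, read 5.43, 5.49 and 5.54 on stretched and 5.77, 5.64 and 5.54 on unstretched arrays, so that the groups all but touched (log2 change -0.16, SE 0.09, adjusted p = 0.274). Its mean lay under that of the median gene. The other probe sets of Acvr1b, Acvr2a and Acvr2b had log2 changes between -0.25 and -0.04 and overlapped between groups. Acvr1b and Acvr2a passed when the arrays were quantile normalized again (adjusted p = 0.0230 and 0.0286), within ranges of 0.0230 to 0.216 and 0.0286 to 0.193 over the alternatives.

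Acvr1, a type I receptor known mainly for BMP signalling through Smad1 and Smad5, lay the other way. Its representative probe set read 6.47, 6.55 and 6.44 on stretched arrays, against 6.22, 5.998 and 6.33 on unstretched arrays, without overlap (log2 change 0.31, SE 0.10, limma adjusted p = 0.0631). A nearly as bright probe set, 1448460_at, read 6.67, 6.40 and 6.80 on stretched and 5.70, 5.78 and 6.12 on unstretched arrays. There the log2 change was 0.76 (SE 0.13) and passed the threshold over all probe sets (limma adjusted p = 0.00596). The third, 1416787_at, had a log2 change of 0.15 (SE 0.09). With its probe sets averaged, Acvr1 had a log2 change of 0.41 and passed (adjusted p = 0.0088, range over the alternatives 0.0088 to 0.189).

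In all, 4 of the 10 genes rose (Fst, Fstl1, Inhba and Inhbb), 1 fell (Inha) and 5 did not pass, at a Benjamini-Hochberg adjusted p under 0.05 in limma. Over all genes 14.7% passed, 7.98% higher and 6.76% lower (1452 and 1229 genes). That split turned to 1149 higher and 1544 lower when the arrays were quantile normalized again and to 1192 and 1481 with cyclic loess. The median log2 change was 0.13 over the 10 genes and -0.02 over all genes. The groups did not overlap in 9 of the 10 genes, against 32.6% of all genes. Of the 20 probe sets 8 rose, 1 fell and 11 did not pass, against 11.0% of all probe sets that passed. Since the family was chosen with this comparison known, these counts only describe it.

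**Figure D2:**
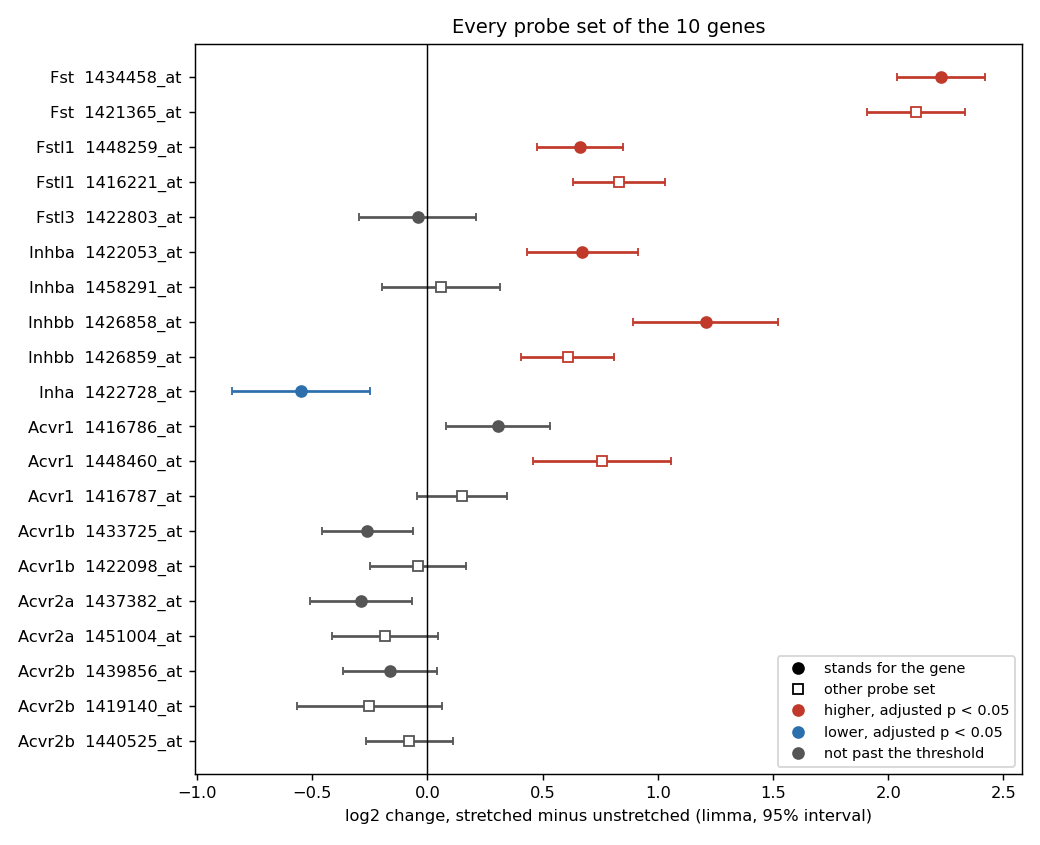
Log2 change, stretched minus unstretched (x axis, with 95% intervals from limma over all 45037 probe sets), of the 20 probe sets of the 10 genes (y axis). Filled circles stand for the gene and open squares are its other probe sets. Both Fst probe sets lie above 2, both Inhbb and both Fstl1 probe sets lie above 0.6, and every probe set of Acvr1b, Acvr2a and Acvr2b lies below 0.

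Other signals differed between the groups as well. As a sign of RNA quality, beta-actin controls at the 3′ end exceeded those at the 5′ end by 1.30 ± 0.05 log2 units in stretched and 1.57 ± 0.03 in unstretched cells (SD, n = 3 each, two-sided exact permutation test, p = 0.1, which is the lowest that 3 against 3 arrays can give). For Gapdh controls this excess was 0.16 ± 0.10 in stretched and 0.25 ± 0.07 in unstretched cells (same exact test, p = 0.4). Of 12 podocyte markers 10 were measured, 7 of them above the median gene, and their mean log2 value ran from 7.32 to 7.39 on stretched and from 7.38 to 7.47 on unstretched arrays. Of these Synpo, which encodes the actin-associated protein synaptopodin, and Vegfa, which encodes a growth factor for endothelium, fell (log2 changes -0.45 and -0.47), and none rose. Among the podocyte markers Nphs1, which encodes the slit diaphragm protein nephrin, and Ptpro and Tcf21 were below the median gene. Podocyte markers that did not pass had log2 changes from -0.22 (Podxl) to 0.26 (Cd2ap). Of these, Cd2ap and Actn4 (0.19) were higher on every stretched array than on any unstretched array. Of the 5 leukocyte markers 2 fell (Cd68 and Csf1r), and the mean of the list ran from 5.34 to 5.45 on stretched and from 5.69 to 5.83 on unstretched arrays. Only Csf1r of that list was above the median gene. Ptprc (-0.28), Adgre1 (-0.21) and Cd3e (-0.04) did not pass. Of these, Ptprc and Adgre1 were lower on every stretched array than on any unstretched array, and Cd3e overlapped. Of 4 parietal epithelial markers Cldn1 and Pax8 rose, and Krt8 (log2 change -0.13) and Krt18 (-0.11) did not pass. That list mean was 5.40 to 5.53 on stretched and 5.14 to 5.30 on unstretched arrays. Of 4 mesangial markers Pdgfrb rose (list mean 6.11 to 6.23 on stretched and 5.99 to 6.07 on unstretched arrays). Itga8 (-0.16), Des (0.02) and Gata3 (0.35) of that list did not pass. The 5 endothelial markers, all below the median gene (3.94 to 4.06 on stretched and 3.96 to 4.08 on unstretched arrays), and the 5 tubule markers (5.38 to 5.42 on stretched and 5.33 to 5.36 on unstretched arrays) had 0 calls in limma. Of the tubule markers only Lrp2 was above the median gene. The part of RNA quality and of cell makeup in the results was not tested, and in such bulk RNA fewer cells of a type cannot be told apart from less RNA per cell.

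Around the family, 73 of 78 listed genes of the activin, BMP and Smad pathways were measured, and 10 rose, 3 fell and 60 did not pass. The share of 17.8% is near the 14.7% of all genes, and the median log2 change was 0.03. By list the share ran from 0% (other antagonists) to 40% (Smad2 and Smad3 targets). The lists were chosen with earlier results known, so these shares only describe them. Without stretched replicate 1, 2 or 3 the calls numbered 8 each. Among the 17 Smads and their regulators 4 rose and 0 fell in limma (23.5% called, median log2 change 0.07). These were Pmepa1, Smad7, Skil and Smad1. Other genes of the list known to restrain Smads did not pass, with log2 changes of 0.07 (Smad6), -0.07 (Smurf1), 0.04 (Smurf2), 0.07 (Ski), 0.10 (Tgif1) and 0.32 (Tgif2). Pmepa1, which sequesters Smads and blunts the response, read 6.77, 6.25 and 6.17 on stretched against 5.64, 5.31 and 5.24 on unstretched arrays (log2 change 1.00, SE 0.16, limma adjusted p = 0.00210). Smad7, the inhibitory Smad that competes at type I receptors, read 7.23, 7.14 and 7.10 on stretched against 6.60, 6.66 and 6.68 on unstretched arrays (log2 change 0.52, SE 0.08, adjusted p = 0.00220). Skil, a corepressor of Smads, read 9.09, 8.76 and 8.91 on stretched against 8.41, 8.45 and 8.45 on unstretched arrays (log2 change 0.48, SE 0.10, adjusted p = 0.00768). Another probe set of Pmepa1 (log2 change 1.00) passed too, as did a dim one of Skil (0.46, means of 4.40 in stretched and 3.94 in unstretched cells). A dim probe set of Pmepa1 (0.07) and of Smad7 (0.34) did not pass, and both were brighter than that of Skil. Smad1, which carries BMP signals, rose by 0.35 (SE 0.09, adjusted p = 0.0287), and its other probe sets had log2 changes of 0.16 and 0.29 that did not pass. Smad2, Smad3 and Smad4, which carry activin signals, did not pass either, with log2 changes of 0.03 (Smad2, SE 0.09), -0.09 (Smad3, SE 0.08) and 0.12 (Smad4, SE 0.08).

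Genes known from other cells as targets of Smad2 and Smad3 went both ways. Of 15 measured 4 rose and 2 fell (40% called, against 14.7% of all genes, median log2 change 0.01). Those that rose include Pmepa1, Smad7 and Skil, which the list shares with the regulators above. Klf10, a transcription factor induced early by TGF-beta, fell and read 7.57, 7.53 and 7.63 on stretched against 8.01, 8.01 and 8.13 on unstretched arrays (log2 change -0.47, SE 0.08, limma adjusted p = 0.00385). Of 11 genes known as targets of BMP Smads 3 rose and 0 fell in limma (27.3% called, median 0.04). These were Smad7, Id3 (log2 change 0.53, SE 0.14, limma adjusted p = 0.0285) and Id1 (0.42, SE 0.12, adjusted p = 0.0366). Id3 and Id1 encode inhibitors of differentiation factors. Genes of this list that did not pass had log2 changes from -0.29 (Msx1) to 0.22 (Id2). Of these, Msx1 and Id4 (-0.29) were lower on every stretched array than on any unstretched array. The Id calls depended on the scaling and on single arrays. Each ended with quantile normalization again (adjusted p = 0.0547 for Id3 and 0.0829 for Id1) and with cyclic loess (0.0550 and 0.0803), and over all alternatives their adjusted p ran from 0.0091 to 0.108 for Id3 and from 0.0102 to 0.129 for Id1. Without single arrays, Id3 ended without stretched replicates 1 (0.0804), 2 (0.0505) and 3 (0.108) and unstretched replicates 2 (0.0654) and 3 (0.0550). Id1 ended without stretched replicates 2 (0.0545) and 3 (0.129) and unstretched replicates 2 (0.0901) and 3 (0.0954), and when every probe set was tested (0.0523). Smad1 ended without stretched replicates 1 (0.0780), 2 (0.0558) and 3 (0.110) and unstretched replicate 2 (0.0949). It also ended under cyclic loess (0.0616) and a further quantile normalization (0.0713), in a range from 0.0095 to 0.110.

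Of the proprotein convertases, which cut the precursors of activins and other TGF-beta relatives, 1 of 4 rose. This was Furin, at 8.03, 7.90 and 7.73 on stretched against 7.10, 6.90 and 6.81 on unstretched arrays (log2 change 0.95, SE 0.11, limma adjusted p = 3.03e-04). Of 12 other ligands 1 rose and 1 fell (median log2 change -0.05). Bmp6, a BMP that follistatin also binds, fell and read 10.27, 10.25 and 10.00 on stretched against 10.78, 10.70 and 10.56 on unstretched arrays (log2 change -0.51, SE 0.10, adjusted p = 0.00779). Gdf11, an activin-like ligand of the type II receptors, rose by 0.34 (SE 0.09, adjusted p = 0.0226), with a mean below the median gene. Gdf11 no longer passed once any stretched array (0.0768, 0.0626 and 0.0751 for replicates 1, 2 and 3) or unstretched replicate 1 (0.0708) or 2 (0.0577) was left out, in a range from 0.0129 to 0.0768. Of 11 other receptors and coreceptors 1 rose (median -0.05), the TGF-beta type II receptor gene Tgfbr2 (log2 change 0.43, SE 0.10, adjusted p = 0.0147). Its call ended without stretched replicate 1 (0.0589) or 2 (0.0648), in a range from 0.0015 to 0.0648. Another probe set of Tgfbr2 passed too (log2 change 0.59), and a dim one had a log2 change of -0.0046. Of 13 other extracellular antagonists 0 passed in limma, with log2 changes from -0.26 to 0.26.

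**Figure D3:**
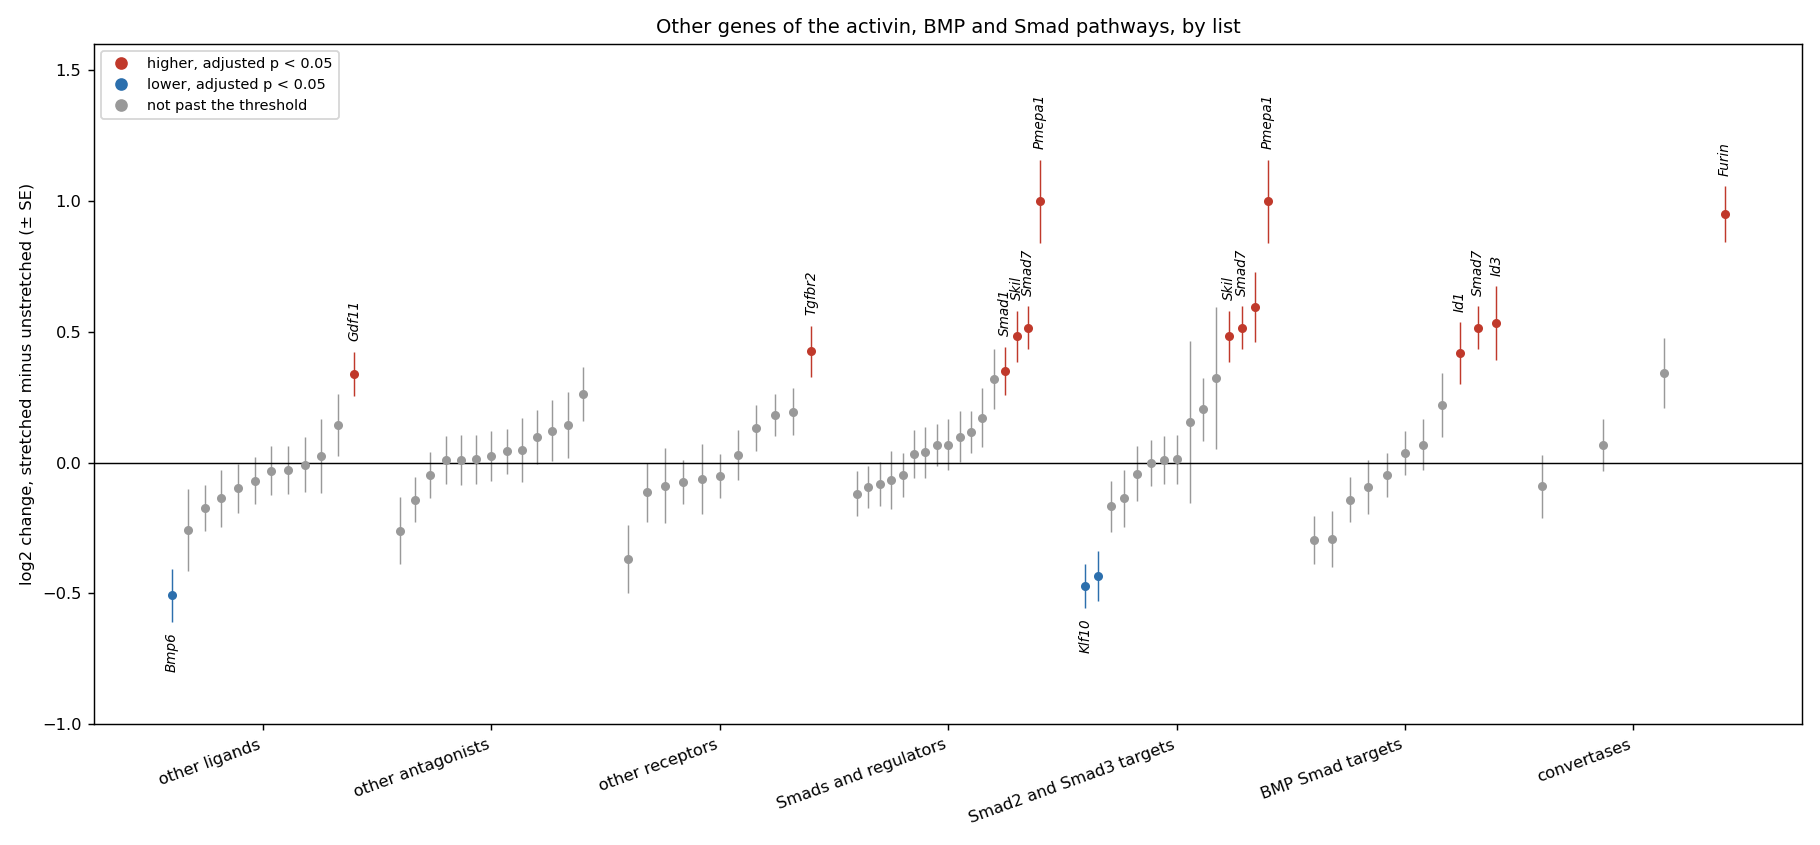
Log2 change, stretched minus unstretched (y axis, ± SE from limma, n = 3 per group), of the 73 other pathway genes measured, by list (x axis), with genes that 2 lists share drawn in both. Colours mark genes past an adjusted p of 0.05, and labels mark those named in the text. The highest points are Pmepa1 at 1.00 and Furin at 0.95, and the lowest is Bmp6 at -0.51.

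Profiles nearest to those of Fst and Inhba were sought among 16331 other genes, by the root-mean-square distance between log2 values centred on their mean over the 6 arrays. The measure includes the difference between the groups, so these genes share its direction and size by construction, and nothing is read from it about function. Nearest to Fst were Fbln2 (distance 0.10), a matrix glycoprotein gene, Mcam (0.15), an adhesion molecule gene, Sorbs2 (0.20), a stress fibre adaptor gene, Filip1l (0.21) and the tubulin gene Tubb2b (0.26). Fbln2 had 9.68, 9.82 and 9.91 on stretched against 7.51, 7.59 and 7.79 on unstretched arrays, a log2 change of 2.17 (SE 0.10). With all probe sets of a gene averaged, the log2 change was 1.18 for Fbln2 and 0.66 for Sorbs2, against 1.92 for the representative probe set of Sorbs2, so the likeness in size to Fst holds for the representative probe sets. Nearest to Inhba were Lhfp (0.03), the secreted metalloprotease gene Adamts1 (0.04), Ms4a3 (0.05), the proline synthesis gene Aldh18a1 (0.06) and the focal adhesion gene Zyx (0.06). Ms4a3 was dim, with a mean of 5.12 under that of the median gene, where values can be background. With its probe sets averaged, Aldh18a1 had a log2 change of 0.39 in place of 0.60 and no longer passed in limma (adjusted p = 0.0535, range over the alternatives 7.96e-04 to 0.0535). Like Inhba, these 5 genes had their lowest value on unstretched replicate 3, a likeness that the choice by distance over the same arrays favours. Lhfp had 11.72, 11.81 and 11.66 on stretched against 11.15, 11.21 and 10.88 on unstretched arrays, and Zyx had 11.23, 11.18 and 11.04 on stretched against 10.71, 10.64 and 10.35 on unstretched arrays.

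**Figure D4:**
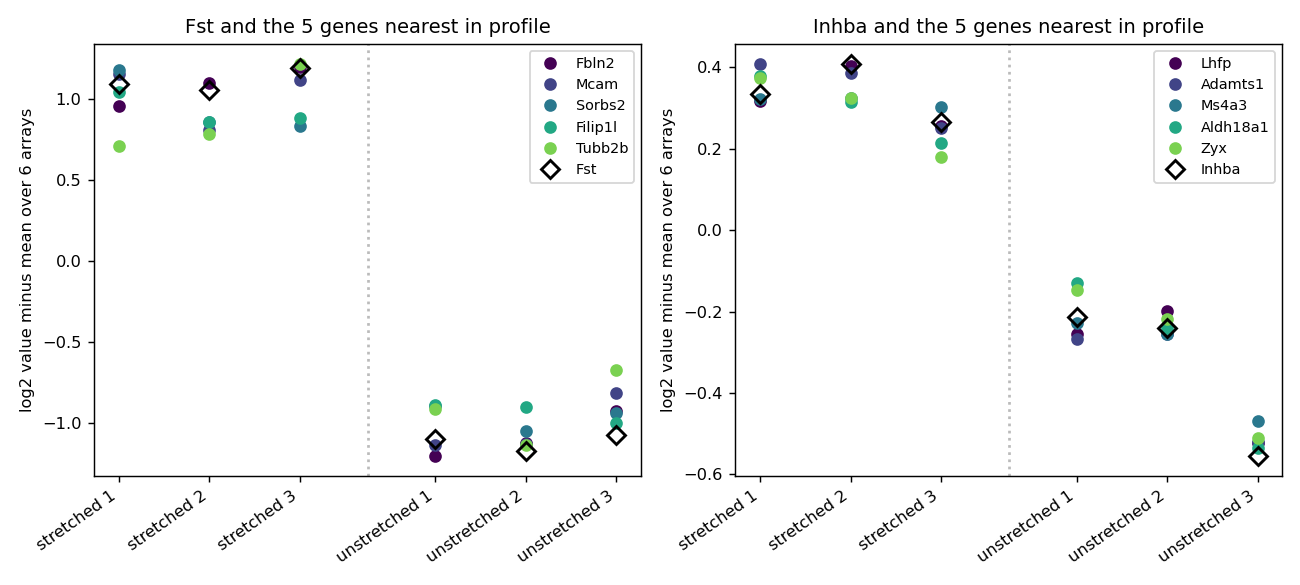
Log2 value minus the mean over the 6 arrays (y axis) on each array (x axis, stretched left of unstretched), for Fst and Inhba (open diamonds) and the 5 genes nearest to each (circles). The representative probe sets of Fst and its neighbours stand 1.81 to 2.23 log2 units higher on stretched arrays (Fbln2 1.18 and Sorbs2 0.66 with all probe sets averaged). Inhba and its neighbours have their lowest point on unstretched replicate 3, which the choice by distance favours.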

How the data were processed

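RNA of 6 arrays was analysed. As deposited, each probe set has a log2 value on each array, made with RMA per the submitters' processing notes. Its version, options and genome build are not stated there. RMA sets the overall level of arrays equal and compresses dim probe sets, detection calls were not used, and the number of arrays limits the precision. The spread was not equal. The SD over probe sets was 2.10, 2.07 and 2.10 on stretched arrays, against 2.05, 2.03 and 2.05 on unstretched arrays. Medians were 4.923, 4.957 and 4.941 on stretched and 4.963, 4.981 and 4.961 on unstretched arrays. The part of this difference between the groups in the log2 changes was not tested on its own. Of 45101 probe sets, 64 controls were left out. The platform annotation gave 1 symbol to 34945, several to 932 and none to 9160, and 34741 matched a RefSeq gene ID (GRCm38.p6).

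The contrast of stretched minus unstretched used limma 3.58.1 (lmFit, eBayes, R 4.3.3) over 18193 genes, and over 45037 probe sets for values of single probe sets, without covariates or a filter, at a Benjamini-Hochberg adjusted p under 0.05. The fit was tested on simulated data with independent noise and no batches, so that test says nothing about batches in these arrays. Whether the replicate numbers pair the arrays is unsettled, and they were not taken as pairs (see the closing part on processing). Members, lists and tests were chosen with earlier results of these data known. The rule named every member, the called genes of each list (4 at most, by moderated statistic) and the 5 nearest profiles, predicted transcripts left out. Alternatives were blocks, left-out arrays, scalings, a filter, probe set choices and another prior.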

Additional observations from a re-analysis of the deposited data

How the results depend on the processing

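Over 15 alternatives, the calls and directions of Fst, Fstl1, Inhba and Inhbb held, with log2 changes of 2.14 to 2.26, 0.56 to 0.75, 0.37 to 0.73 and 0.91 to 1.35. Fstl3, which did not pass, changed sign without stretched replicate 1 (log2 change 0.0071) and without unstretched replicate 2 (0.028), both within its error, and ran from -0.16 to 0.028 with single arrays left out. Acvr1, Acvr1b and Acvr2a passed under 5, 5 and 4 alternatives. Leaving out 1 array gave 1661 to 2639 calls over all genes, 4 to 5 among the 10 genes and 8 to 14 among the pathway genes, against 2681, 5 and 13 with all arrays; fewer arrays enter each such fit. The low values over all genes came without stretched replicate 1 (1661) and 3 (1750). Other scalings shifted the split over all genes from 1452 higher and 1229 lower to 1149 and 1544 (quantile normalized again), 1192 and 1481 (cyclic loess) or 1666 and 1028 (arrays centred on their medians), while the median change of all genes stayed between -0.02 and 0.01. Among the 10 genes the first 2 of these gave 4 higher and 3 lower. Same-numbered arrays of the groups had correlations of deviations of 0.018, 0.15 and 0.28, all above 0 but not all over 0.1. Unstretched replicate 1 correlated better with stretched replicate 2 (0.11), and stretched replicate 1 better with unstretched replicate 2 (0.058). Arrays of replicate 3 had values below 0 with every other number (-0.070, -0.24, -0.12 and -0.19). The numbers were not taken as pairs, though a batch shared by arrays of the same number was not excluded and pairing is unsettled. With the replicate block as a fixed term the calls were 3102, 5 and 15. As a random term, with a consensus correlation of 0.15, it gave 3283, 8 and 14, and the log2 changes stayed the same. There the limma adjusted p was 0.0437 for Acvr1 (0.0631 without the block), 0.0437 for Acvr1b (0.0689) and 0.0488 for Acvr2a (0.0739). Why 8 of the 10 genes passed there was not tested. Signal over background is unknown, which limits what dim probe sets such as those of Inha, Fstl3 and Acvr2b can show.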
